A study of Homo sapiens with 6 samples.

Results

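The machinery that copies chromosomal DNA was examined through 53 genes, chosen by name for their place in origin licensing, the replicative helicase, the polymerases, the clamp and the fork. All 53 were among the 17013 genes with values in the deposited table, and all 53 passed the filter on low counts that left 12819 genes for testing. The cells were Y79, an established human retinoblastoma line that carries extra copies of MYCN, a transcription factor gene of the MYC family. They had been transduced with a control shRNA (3 libraries, labelled MYCN wild-type) or with an shRNA against MYCN (3 libraries, labelled MYCN knockdown), where an shRNA is a hairpin RNA that lowers its target transcript. All 6 libraries were poly(A)-selected RNA of 1 batch by their labels, described as independent biological replicates. The hairpin sequence, the number of hairpins, the vector and the time from transduction to harvest were not found in the labels, so effects of MYCN and of a hairpin cannot be told apart. The comparison asks how transcripts differ when MYCN is targeted.

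DNA replication begins when the origin recognition complex (ORC), with CDC6 and CDT1, loads rings of the MCM2-7 helicase onto DNA. This step, called licensing, is limited to G1 phase, in part by geminin (GMNN), which binds CDT1. In S phase the kinase CDC7 with its partner DBF4, together with CDC45 and the GINS complex, turns loaded rings into active helicases. DNA polymerase alpha with primase starts each strand, polymerases delta and epsilon extend it, and PCNA, a sliding clamp loaded by replication factor C (RFC), tethers them. RPA covers the exposed single strands, and FEN1, DNA2 and LIG1 process and join the lagging strand fragments. Many of these genes are known targets of E2F transcription factors, which the retinoblastoma protein restrains, and several are known to be bound by MYC proteins.

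Gene positions are those of GENCODE 29 (GRCh38). Values are counts relative to library size (CPM), scaled between libraries by TMM, a method that assumes most genes do not change, and values of libraries are listed in the order of replicates 1, 2 and 3. Depth was 15490263 to 16078416 counts per library. MYCN itself measured 3046, 3128 and 2876 CPM in the control libraries and 2413, 2284 and 2195 CPM in the MYCN shRNA libraries, so the targeted transcript was lower in all 3 libraries but stayed abundant (log2 fold change -0.39 ± 0.043 (SE), edgeR adjusted p = 8.03e-11). With libraries scaled by their total counts alone, the log2 fold change of MYCN was -0.21 (edgeR adjusted p = 2.39e-05), so the size of its fall depends on the scaling. Of the family of MYCN, under TMM, MYC rose by 2.99 on the log2 scale from 0.3802 to 3.07 CPM. MAX, the gene of their shared partner, fell by 0.65, and MYCL was not called (-0.07). Calls were common for any gene, since 75.8% of tested genes passed the test. Markers of the line were present in controls, such as the photoreceptor transcription factor genes CRX (217 CPM) and OTX2 (1078 CPM), while ISL1 was listed at 0 in all 6 libraries. Of 12 such markers 8 rose and 3 fell. Fibroblast and pigment epithelium markers summed to 5.55 to 6.202 CPM in controls and 16.7 to 17.8 CPM with the MYCN shRNA over the 8 of 10 genes present. DCN and LUM were at 0 in controls. RPE65 rose from 0.244 to 4.72 CPM, COL1A1 from 1.12 to 2.75 CPM, COL1A2 from 0.424 to 1.87 CPM and BEST1 from 2.46 to 5.87 CPM. PDGFRB and MITF were not called. Of the glial markers GLUL and VIM were expressed, and AQP4 and S100B were at 0 in controls. GLUL fell by 0.35 and VIM rose by 0.68 on the log2 scale. The 7 summed to 1149.7 to 1195 and 1172 to 1204 CPM, a sum made up mostly of these 2 genes that moved in opposite directions. Immune and blood markers summed to 4.53 to 5.002 and 5.65 to 6.77 CPM over 5 of 7 genes. The part of other cells in the results below was not tested.

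With the MYCN shRNA 26 of the 53 replication genes fell and 17 rose, while 10 did not pass the test (edgeR quasi-likelihood test, adjusted p under 0.05). Among all tested genes 37.9% fell and 38% rose, against 49.1% and 32.1% of the replication genes. The share called, 81.1%, was thus near the background of 75.8%. None of the 53 changed by 2-fold or more, whereas 14.5% of all tested genes did (5.25% lower and 9.24% higher). These shares were not matched for abundance. Up to 2 on the log2 CPM scale lay 1750 of all tested genes and 0 of the 53, and from 2 to 4 lay 2358 and 1. The replication genes ran from -0.92 for MCM10 to 0.75 for RFC1 in log2 fold change, with a median of -0.09 against 0.0046 for all tested genes. For 45 of the 53 (84.9%) the 6 libraries separated by group, against 76.8% of all tested genes. The MYCN shRNA libraries were all below the controls for 28 genes (38.2% of all tested genes) and all above for 17 (38.6%). In bulk RNA fewer cells of a kind and less RNA per cell cannot be told apart.

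**Figure D1:**
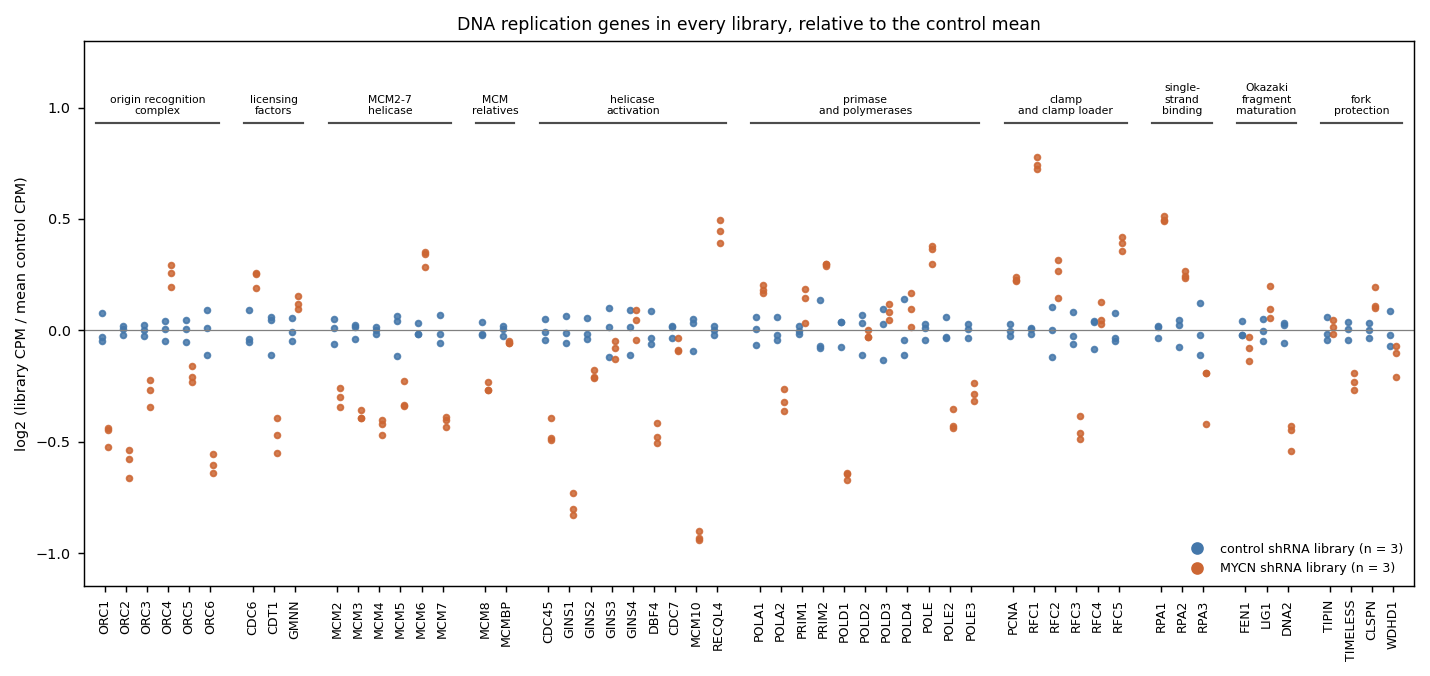
Each point is a library, drawn as log2 of its CPM over the mean control CPM of that gene, for the 53 DNA replication genes grouped by role (3 control shRNA and 3 MYCN shRNA libraries). The MYCN shRNA libraries lie below all controls for 28 genes, above them for 17, and overlap them for 8, with MCM10 lowest and RFC1 highest.

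Counts and medians by role are a description, and differences between roles were not tested. In licensing, 6 of 9 genes fell and 3 rose, with a median log2 fold change of -0.28. Of the 17 helicase genes, 11 fell and 2 rose (median -0.30). The 11 primase and polymerase genes were divided evenly, with 4 lower, 4 higher and 3 not called (median 0.08). Leaving out 1 library moved this median by over 1.5 times, to 0.0163 without control replicate 1, 0.0398 without control replicate 2 and 0.1274 without control replicate 3. Among the 6 clamp and clamp loader genes 4 rose and 1 fell (median 0.24). The remaining 10 genes of single-strand binding, fragment maturation and fork protection had 4 lower and 4 higher, with a median of -0.03 that turned to 0.15 with library sizes alone and was -0.0169 without MYCN shRNA replicate 2. On that scaling the medians were -0.10 for licensing, -0.12 for the helicase, 0.26 for the polymerases and 0.42 for the clamp. Summed over genes, the 17 helicase genes stood at 3050.1 ± 52.4 CPM (SD, n = 3) in controls and 2482 ± 22.1 CPM with the MYCN shRNA, and the clamp and clamp loader at 1068 ± 16.4 and 1307 ± 18.7 CPM.

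Where the zero of these fold changes lies depends on the scaling. The control libraries had TMM factors of 0.93 to 0.948, the MYCN shRNA libraries of 1.06 to 1.07. When libraries were scaled by their total counts alone, the median of all genes moved to 0.19 and that of the replication genes to 0.10, with 19 of the 53 lower and 26 higher. The 9 added higher calls were MCMBP, GINS4, CDC7, POLD2, POLD3, POLD4, RFC4, FEN1 and TIPIN, and the 7 lost lower calls were ORC3, ORC5, MCM8, GINS2, RPA3, TIMELESS and WDHD1. Higher calls thereby made up 57.8% of the called replication genes instead of 39.5%, and 66.3% of all called genes instead of 50%. As a share of raw counts the 53 genes made up 0.651% to 0.6696% of control libraries but 0.711% to 0.713% of MYCN shRNA libraries, although their summed TMM-scaled CPM was 7047 ± 75 in controls and 6689 ± 28.5 with the MYCN shRNA (SD, n = 3). Calls that held their direction and passed the test under all 14 alternatives tried numbered 19 lower and 13 higher. The 19 were ORC1, ORC2, ORC6, CDT1, MCM2, MCM3, MCM4, MCM5, MCM7, CDC45, GINS1, DBF4, MCM10, POLA2, POLD1, POLE2, POLE3, RFC3 and DNA2. The 13 were ORC4, CDC6, MCM6, RECQL4, POLA1, PRIM2, POLE, PCNA, RFC1, RFC2, RFC5, RPA1 and RPA2.

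**Figure D2:**
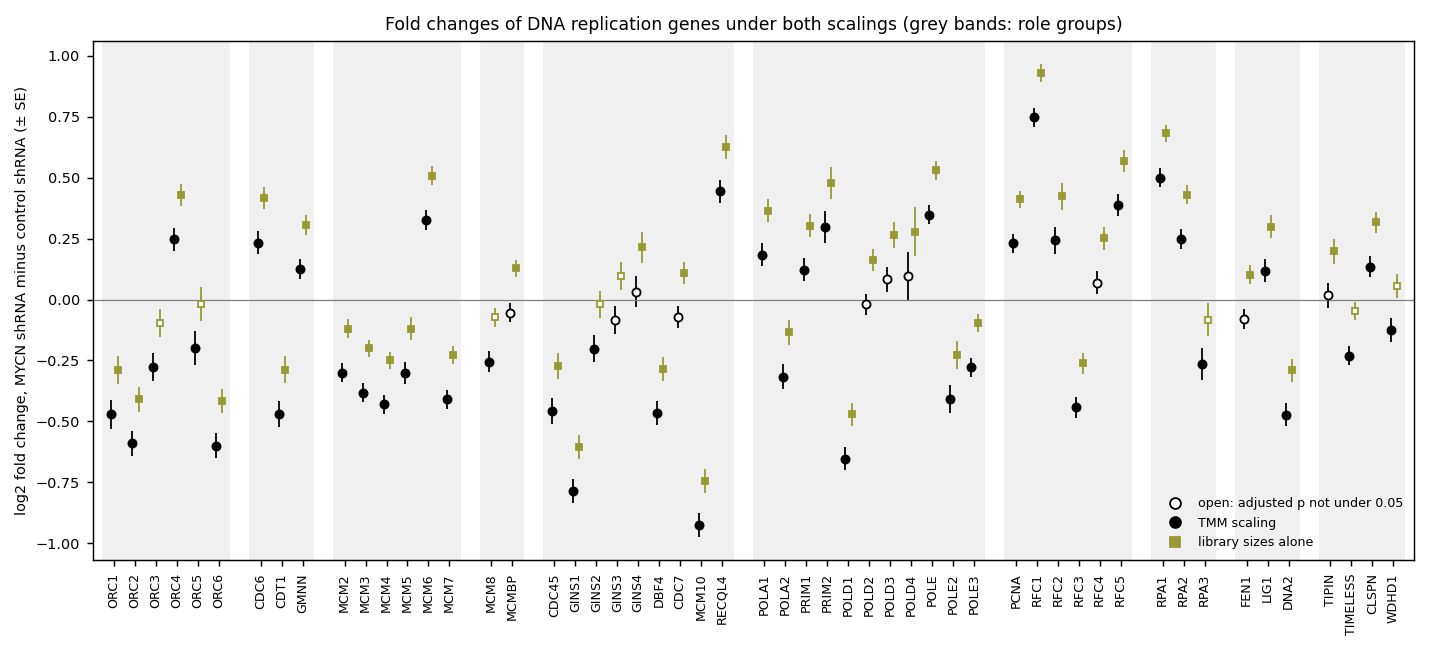
Log2 fold changes (MYCN shRNA minus control shRNA) with standard errors for the 53 genes, as circles under TMM scaling and as squares with library sizes alone, open where the adjusted p was not under 0.05. The squares lie above the circles by a near-constant step, so MCMBP, CDC7, POLD2, GINS3, FEN1 and WDHD1 cross 0 while MCM10, GINS1 and POLD1 stay below it and RFC1, RPA1 and MCM6 above it.

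Within the origin recognition complex, which marks replication start sites, 5 of 6 subunit genes fell and ORC4 rose. ORC6, the smallest subunit (chromosome 16, 46689643 to 46698394, plus strand), and ORC2 had the lowest log2 fold changes, which lay within a standard error of each other. ORC6 measured 88.2, 96.1 and 102 CPM in the control libraries and 62.7, 61.04 and 64.9 CPM in the MYCN shRNA libraries (log2 fold change -0.60 ± 0.051 (SE), edgeR adjusted p = 4.93e-14). ORC2, a core subunit (chromosome 2, 200908973 to 200963680, minus strand), measured 71.6, 73.6 and 73 CPM in the control libraries and 50.2, 48.7 and 46 CPM in the MYCN shRNA libraries (log2 fold change -0.59 ± 0.051 (SE), edgeR adjusted p = 1.15e-13). Both were lower in every MYCN shRNA library than in any control. ORC4, an ATP-binding subunit (chromosome 2, 147930397 to 148021604, minus strand), went the other way, with 81.9, 76.9 and 79.7 CPM in the control libraries and 90.98, 94.9 and 97.3 CPM in the MYCN shRNA libraries (log2 fold change 0.25 ± 0.046 (SE), edgeR adjusted p = 8.35e-06). ORC1 (-0.47), the subunit that drives ATP hydrolysis, fell, as did ORC3 (-0.28) and ORC5 (-0.20), and these last 2 did not pass with library sizes alone (adjusted p = 0.122 and 0.821). The ORC4 count came to 0.299, 0.265 and 0.273 of the summed counts of the other 5 ORC genes in control libraries and to 0.444, 0.461 and 0.4805 in MYCN shRNA libraries, a ratio within each library that no scaling between libraries can alter.

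The factors that load the helicase moved in different directions. CDT1, which brings MCM2-7 to the origin (chromosome 16, 88803213 to 88809258, plus strand), measured 77.1, 76.4 and 68.4 CPM in the control libraries and 56.3, 50.5 and 53.4 CPM in the MYCN shRNA libraries and fell to 72.2% of the control level (log2 fold change -0.47 ± 0.054 (SE), edgeR adjusted p = 2.45e-10). CDC6, the ATPase that works with ORC (chromosome 17, 40287633 to 40304657, plus strand), measured 91.2, 90.4 and 99.8 CPM in the control libraries and 112, 112 and 107 CPM in the MYCN shRNA libraries and rose (log2 fold change 0.23 ± 0.046 (SE), edgeR adjusted p = 1.61e-05). GMNN, the inhibitor of CDT1, measured 128, 131 and 137 CPM in the control libraries and 141, 143 and 147 CPM in the MYCN shRNA libraries (log2 fold change 0.12 ± 0.042 (SE), edgeR adjusted p = 0.00705). This rise of 0.12 did not pass without control replicate 1 (adjusted p = 0.0615). The groups did not overlap for any of the 3 genes. The ratio of CDT1 to GMNN counts was 0.604, 0.582 and 0.499 in controls and 0.399, 0.353 and 0.364 with the MYCN shRNA, with the activator lower relative to its inhibitor in all 3 libraries. The ratio of CDC6 to CDT1 counts was 1.18, 1.18 and 1.46 in controls and 1.99, 2.21 and 2 with the MYCN shRNA.

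Of the 6 genes of the MCM2-7 ring, 5 fell by similar amounts and MCM6 rose. MCM4 and MCM7 had the lowest log2 fold changes, within a standard error of each other. MCM4 (chromosome 8, 47960185 to 47978160, plus strand) measured 419.7, 411 and 416 CPM in the control libraries and 314, 300.2 and 311 CPM in the MYCN shRNA libraries (log2 fold change -0.43 ± 0.038 (SE), edgeR adjusted p = 1.61e-13). MCM7 (chromosome 7, 100092728 to 100101940, minus strand) measured 524, 557 and 509.9 CPM in the control libraries and 405, 393 and 401 CPM in the MYCN shRNA libraries (log2 fold change -0.41 ± 0.039 (SE), edgeR adjusted p = 2.25e-12). In the annotation 13.3% of its transcript bases also lie in exons of AP4M1 on the opposite strand. MCM3 (-0.38), MCM5 (-0.30) and MCM2 (-0.30) fell as well, which puts the 5 between -0.43 and -0.30. MCM6 (chromosome 2, 135839626 to 135876426, minus strand) measured 140.5, 136 and 135 CPM in the control libraries and 174, 167 and 175 CPM in the MYCN shRNA libraries, with all 3 MYCN shRNA libraries above the controls (log2 fold change 0.33 ± 0.040 (SE), edgeR adjusted p = 1.42e-09). Relative to the summed counts of the other 5 genes, MCM6 stood at 0.0721, 0.0684 and 0.0721 in controls and 0.116, 0.114 and 0.117 with the MYCN shRNA.

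The ring contains each MCM protein in equal number, whereas the transcripts differed in level. Per kilobase of transcript, MCM7 (179 ± 8.15 CPM per kilobase, SD, n = 3) and MCM3 (178 ± 4.33) were highest in controls and did not differ beyond their spread. MCM4 (99.3 ± 1.09) and MCM2 (76.1 ± 2.87) followed, and MCM5 (41.2 ± 2.72) and MCM6 (36.7 ± 0.757) were lowest. With the MYCN shRNA, MCM3 (136 ± 1.96) and MCM7 (135 ± 2.18) still led on this scale, but MCM6 (46.1 ± 1.15) now stood above MCM5 (33.5 ± 1.53). Levels per kilobase use the annotated length of 1 transcript per gene. The orders given for MCM2-7 and RFC also held with the shortest principal transcript of each gene, apart from neighbours that lay within their spread.

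**Figure D3:**
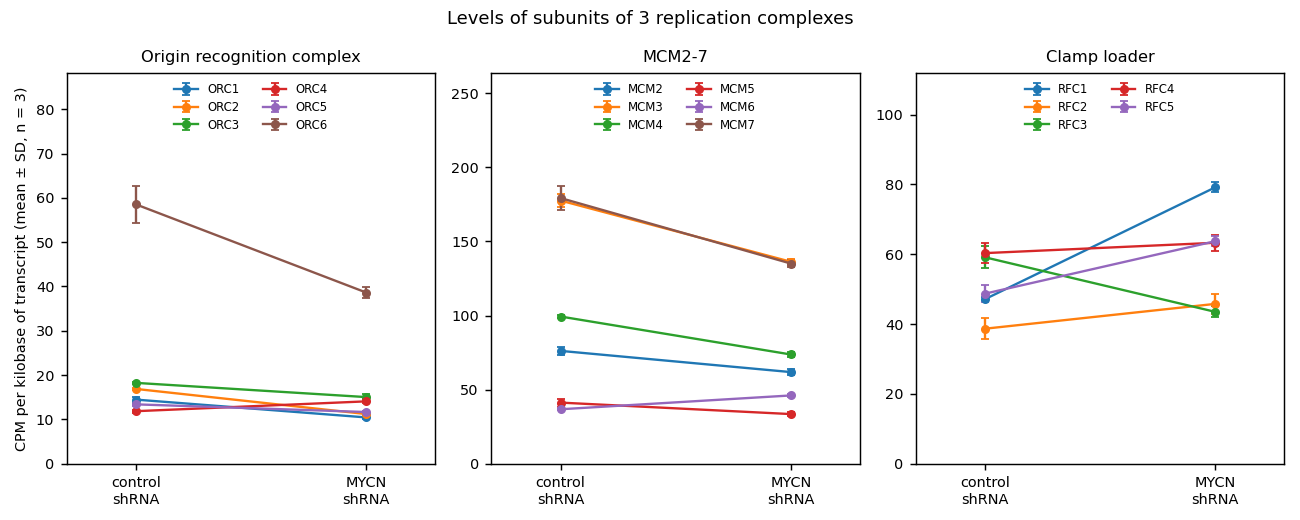
CPM per kilobase of transcript (mean ± SD, n = 3) in control and MYCN shRNA libraries for the subunits of ORC, MCM2-7 and RFC, with a line joining the 2 groups for each gene. The lines of MCM6 and MCM5 cross, and RFC1 ends at 79.2 CPM per kilobase, the highest of the clamp loader, while RFC3 ends lowest at 43.5.

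Among the genes that switch the loaded ring on, 5 of 9 fell and 1 rose. MCM10, which joins the helicase at firing and helps to bring in polymerase alpha (chromosome 10, 13161554 to 13211104, plus strand), had the lowest log2 fold change of the 53. It measured 106, 108 and 97.5 CPM in the control libraries and 55.6, 54.5 and 54.1 CPM in the MYCN shRNA libraries and thus stood at 52.7% of the control level (log2 fold change -0.92 ± 0.049 (SE), edgeR adjusted p = 1.34e-20). GINS1, a subunit of the GINS complex (chromosome 20, 25407727 to 25452628, plus strand), measured 98.01, 101 and 107 CPM in the control libraries and 58.4, 61.3 and 57.3 CPM in the MYCN shRNA libraries (log2 fold change -0.79 ± 0.049 (SE), edgeR adjusted p = 2.09e-18). The other GINS genes lay closer to 0. GINS2 fell by 0.20 and lost its call with library sizes alone (adjusted p = 0.755). GINS3 measured 48.3, 51.3 and 44.02 CPM in the control libraries and 46.3, 45.4 and 43.8 CPM in the MYCN shRNA libraries (-0.09, adjusted p = 0.177 by edgeR). GINS4 measured 31.9, 36.7 and 34.8 CPM in the control libraries and 33.4, 36.7 and 35.6 CPM in the MYCN shRNA libraries (0.03, adjusted p = 0.649 by edgeR), and the groups overlapped for both genes. GINS3 passed the test without control replicate 3 (-0.145, adjusted p = 0.0195). The ratio of GINS1 to GINS3 counts was 2.03, 1.97 and 2.42 in controls and 1.26, 1.352 and 1.31 with the MYCN shRNA.

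CDC45, which completes the active helicase with GINS, fell (-0.46). DBF4, the activating subunit of the CDC7 kinase, fell by 0.47, from 91.7 ± 5.07 to 66.4 ± 2.2 CPM (SD, n = 3). CDC7 itself measured 92.4, 89.4 and 92.7 CPM in the control libraries and 89.3, 86.2 and 85.7 CPM in the MYCN shRNA libraries and did not pass (-0.07, edgeR adjusted p = 0.146), although its libraries did not overlap. The helicase gene RECQL4, which acts in origin firing, rose. It measured 62.8, 62.1 and 61.01 CPM in the control libraries and 84.4, 87.3 and 81.3 CPM in the MYCN shRNA libraries (log2 fold change 0.44 ± 0.048 (SE), edgeR adjusted p = 6.62e-11). In the MCM relatives, MCM8, a helicase gene of recombination, fell. It measured 131, 131 and 136 CPM in the control libraries and 110.3, 110.2 and 113 CPM in the MYCN shRNA libraries (log2 fold change -0.25 ± 0.042 (SE), edgeR adjusted p = 7.54e-07), and the call was lost with library sizes alone (adjusted p = 0.0957). MCMBP, which binds MCM proteins outside the ring, measured 206, 199.7 and 204 CPM in the control libraries and 197, 195 and 195 CPM in the MYCN shRNA libraries and did not pass (-0.05, edgeR adjusted p = 0.197), although its libraries did not overlap.

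Subunits of polymerase epsilon moved in opposite directions, while of polymerase delta only POLD1 was called. POLE, the catalytic subunit of polymerase epsilon (chromosome 12, 132623753 to 132687365, minus strand), measured 205, 208 and 197 CPM in the control libraries and 265, 262 and 250.3 CPM in the MYCN shRNA libraries (log2 fold change 0.35 ± 0.039 (SE), edgeR adjusted p = 1.32e-10). Its partner POLE2 (chromosome 14, 49643555 to 49688422, minus strand) measured 50.1, 47.1 and 46.9 CPM in the control libraries and 35.6, 35.5 and 37.6 CPM in the MYCN shRNA libraries (log2 fold change -0.41 ± 0.057 (SE), edgeR adjusted p = 2.60e-08), and POLE3, a histone-fold subunit, fell by 0.28. POLD1, the catalytic subunit of polymerase delta (chromosome 19, 50384204 to 50418016, plus strand), measured 99.8, 99.6 and 92.1 CPM in the control libraries and 62.1, 62.3 and 61.01 CPM in the MYCN shRNA libraries and fell to 63.6% of the control level (log2 fold change -0.65 ± 0.048 (SE), edgeR adjusted p = 6.10e-16). The libraries of POLE, POLE2 and POLD1 separated by group. POLE4, an epsilon subunit gene outside the 53 genes, rose from 12.97 to 26.19 CPM. Its log2 fold change was 1.01 ± 0.081 (SE), with an edgeR adjusted p of 7.81e-15, which is larger than the rise of any of the 53. The accessory subunits POLD2 (-0.02), POLD3 (0.08) and POLD4 (0.10) did not pass and their libraries overlapped. POLD2 measured 128, 131 and 116 CPM in the control libraries and 125, 123 and 123 CPM in the MYCN shRNA libraries. POLD3 measured 59.6, 66.6 and 69.9 CPM in the control libraries and 69.1, 67.6 and 70.8 CPM in the MYCN shRNA libraries (edgeR adjusted p = 0.153), and it passed without control replicate 3 (adjusted p = 0.0269). POLD4, the smallest subunit of the enzyme, measured 10.4, 9.94 and 11.9 CPM in the control libraries and 11.5, 10.9 and 12.1 CPM in the MYCN shRNA libraries (edgeR adjusted p = 0.391). Counts of POLE were 2.06, 2.09 and 2.14 times those of POLD1 in controls and 4.26, 4.203 and 4.102 times with the MYCN shRNA, and 4.097, 4.41 and 4.204 against 7.43, 7.38 and 6.66 times those of POLE2.

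In polymerase alpha and primase, which lay the first bases of each strand, POLA1 (catalytic, 0.18) and PRIM2 rose while POLA2 (accessory, -0.32) fell. PRIM2, the large primase subunit (chromosome 6, 57314805 to 57646849, plus strand), measured 26.8, 27.01 and 31.1 CPM in the control libraries and 34.9, 34.8 and 34.6 CPM in the MYCN shRNA libraries (log2 fold change 0.30 ± 0.065 (SE), edgeR adjusted p = 8.41e-05). Its counts were 0.416, 0.395 and 0.4896 of those of POLA2 in controls and 0.666, 0.683 and 0.634 with the MYCN shRNA. PRIM1, the catalytic primase subunit, rose by 0.12 (edgeR adjusted p = 0.0202), a call lost by DESeq2 and without control replicate 1 or 2 or MYCN shRNA replicate 2 or 3 (adjusted p = 0.053 to 0.142). Counts of some of these genes are less certain, since the annotated transcripts of POLD4 (70.8% of bases), POLA2 (53.7%), PRIM1 (35.3%) and POLD1 (12.4%) share exons with other protein-coding gene models.

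The genes of the clamp and of 3 loader subunits rose, RFC4 was not called and RFC3 fell. PCNA (chromosome 20, 5114953 to 5126626, minus strand), the most abundant of the 53 genes per kilobase at 341 ± 6.61 CPM per kilobase in controls, measured 455, 473 and 462 CPM in the control libraries and 542, 541 and 548 CPM in the MYCN shRNA libraries (log2 fold change 0.23 ± 0.038 (SE), edgeR adjusted p = 7.46e-07). It has 3 annotated pseudogenes, and how reads shared with them were counted is not stated. RFC1, the large subunit of the loader (chromosome 4, 39287456 to 39366375, minus strand), had the highest log2 fold change of the 53. It measured 231, 226 and 229.9 CPM in the control libraries and 379, 383 and 392 CPM in the MYCN shRNA libraries and stood at 168% of the control level (log2 fold change 0.75 ± 0.038 (SE), edgeR adjusted p = 2.79e-21). RFC5 (chromosome 12, 118013588 to 118033130, plus strand) measured 78.8, 77.96 and 85.1 CPM in the control libraries and 103, 108 and 106 CPM in the MYCN shRNA libraries (log2 fold change 0.39 ± 0.046 (SE), edgeR adjusted p = 5.99e-10), and RFC2 rose by 0.24. RFC4 measured 82.5, 89.7 and 89.8 CPM in the control libraries and 89.2, 95.4 and 90.2 CPM in the MYCN shRNA libraries, which did not pass (0.07, edgeR adjusted p = 0.179). RFC3 (chromosome 13, 33818049 to 33966558, plus strand) measured 136, 139 and 151 CPM in the control libraries and 101, 103 and 109 CPM in the MYCN shRNA libraries (log2 fold change -0.44 ± 0.044 (SE), edgeR adjusted p = 6.75e-12).

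Per kilobase of transcript, RFC1 thereby moved from below RFC3 to above it, whereas in CPM it was above RFC3 in both groups. Per kilobase, control libraries held RFC4 at 60.3 ± 2.88, RFC3 at 59.1 ± 3.14, RFC5 at 48.7 ± 2.35, RFC1 at 47.1 ± 0.473 and RFC2 at 38.7 ± 3 CPM per kilobase, where RFC4 and RFC3, and RFC5 and RFC1, lay within their spread. With the MYCN shRNA the levels per kilobase were 79.2 ± 1.43 for RFC1, 63.7 ± 1.38 for RFC5, 63.3 ± 2.3 for RFC4, 45.8 ± 2.77 for RFC2 and 43.5 ± 1.59 for RFC3, where RFC5 and RFC4, and RFC2 and RFC3, lay within theirs. Counts of RFC3 relative to the summed counts of the other 4 RFC genes were 0.297, 0.2998 and 0.324 in controls and 0.158, 0.155 and 0.163 with the MYCN shRNA. The counts of the clamp and loader together were 0.502, 0.508 and 0.535 times those of MCM2-7 in controls and 0.766, 0.803 and 0.794 times with the MYCN shRNA.

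**Figure D4:**
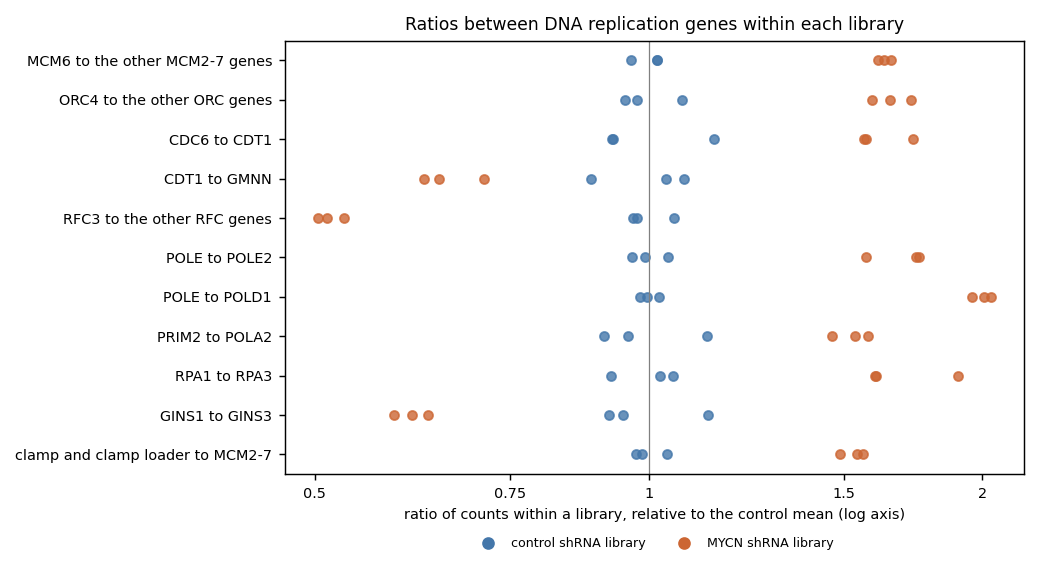
Ratios of counts between replication genes within each library, divided by the mean of the 3 control libraries, on a log axis. These 11 ratios were chosen after the fold changes were seen and are a description, and in each the MYCN shRNA libraries lie apart from the controls, from about 0.516 times the control mean for RFC3 to 2 times for POLE to POLD1.

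Of the 3 genes of RPA, RPA1 and RPA2 rose and RPA3 fell. RPA1, the main DNA-binding subunit (chromosome 17, 1829702 to 1900082, plus strand), measured 226, 225 and 218 CPM in the control libraries and 314, 314 and 318 CPM in the MYCN shRNA libraries (log2 fold change 0.50 ± 0.038 (SE), edgeR adjusted p = 1.66e-15). RPA2, the subunit phosphorylated under replication stress, measured 112, 120.5 and 122 CPM in the control libraries and 142, 140.3 and 139 CPM in the MYCN shRNA libraries (log2 fold change 0.25 ± 0.042 (SE), edgeR adjusted p = 1.49e-06), and it has 3 annotated pseudogenes. RPA3, the smallest subunit, measured 38.2, 42.2 and 35.8 CPM in the control libraries and 33.98, 33.9 and 28.98 CPM in the MYCN shRNA libraries (log2 fold change -0.26 ± 0.067 (SE), edgeR adjusted p = 5.34e-04), and this call was lost with library sizes alone (adjusted p = 0.284). RPA1 counts were 5.904, 5.34 and 6.07 times those of RPA3 in controls and 9.24, 9.25 and 10.97 times with the MYCN shRNA.

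Genes that finish lagging strand fragments gave small changes apart from DNA2. DNA2, a nuclease and helicase gene (chromosome 10, 68414064 to 68472121, minus strand), measured 101, 108 and 107 CPM in the control libraries and 72.1, 76.96 and 77.8 CPM in the MYCN shRNA libraries (log2 fold change -0.47 ± 0.047 (SE), edgeR adjusted p = 4.28e-12), with no overlap. LIG1, the ligase, measured 83.8, 87.2 and 81.3 CPM in the control libraries and 89.9, 96.5 and 87.2 CPM in the MYCN shRNA libraries (log2 fold change 0.12 ± 0.048 (SE), edgeR adjusted p = 0.0246). This call was lost without control replicate 1 or 3, without MYCN shRNA replicate 2 and by DESeq2, with adjusted p-values of 0.0621 to 0.206. FEN1, the flap nuclease, measured 207, 197 and 198 CPM in the control libraries and 197, 183 and 190.1 CPM in the MYCN shRNA libraries and did not pass (-0.08, edgeR adjusted p = 0.0649). In the fork protection group, TIMELESS, whose protein pairs with that of TIPIN to steady the fork, measured 187, 198 and 194 CPM in the control libraries and 165, 160.5 and 169 CPM in the MYCN shRNA libraries (log2 fold change -0.23 ± 0.040 (SE), edgeR adjusted p = 1.83e-06; adjusted p = 0.236 with library sizes alone). TIPIN measured 54.7, 55.6 and 58.7 CPM in the control libraries and 55.8, 56.9 and 58.2 CPM in the MYCN shRNA libraries, with overlap, and did not pass (0.02, edgeR adjusted p = 0.781). CLSPN, the checkpoint adaptor claspin, measured 106, 109 and 111 CPM in the control libraries and 117, 117 and 124 CPM in the MYCN shRNA libraries (log2 fold change 0.13 ± 0.043 (SE), edgeR adjusted p = 0.00504; adjusted p = 0.0586 without MYCN shRNA replicate 3). WDHD1, which links helicase and polymerase alpha, measured 82.2, 85.2 and 91.8 CPM in the control libraries and 74.6, 82.2 and 80.6 CPM in the MYCN shRNA libraries and fell by 0.13 (edgeR adjusted p = 0.0206), but its libraries overlapped. This call was lost by DESeq2, with upper quartile scaling or library sizes alone, and without control replicate 3 or MYCN shRNA replicate 1 (adjusted p = 0.0517 to 0.296), and its log2 fold change was 0.06 with library sizes alone.

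Sequences upstream of the genes were compared because the genes within a complex moved apart while many share E2F control in textbooks. RefSeq promoters (GRCh38.p14, 250 bases before to 50 after the start of the gene, 300 in all) were found for 45 of the 53 genes. The E2F-type sequences TTTCCCGC and TTTGGCGC were searched on both strands, and no promoter of the 45 held both. TTTCCCGC was in 22.2% of the 45 promoters, against 1.63% of all 35116 promoters listed and 2.6% of those of tested genes. TTTGGCGC was in 15.6%, against 0.652% and 1.15%. Either was in 17 of the 45, or 37.8%, against 2.27% of all promoters and 3.74% of those of 10352 tested genes. The CCAAT box was in 55.6%, against 34.6% of all promoters and 36.8% of those of tested genes. CACGTG, the E-box that MYC proteins can bind, was in 7 of 45 or 15.6%, against 7.26% of all promoters and 10.2% of those of tested genes. TTTGAA, the CHR sequence of many mitotic genes, was in the promoter of DBF4 alone (2.22%), against 15.2% of all promoters and 9.39% of those of tested genes. Only exact matches were counted, and a match is a description of letters and not a bound site.

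The 17 genes with an E2F-type sequence had 9 lower and 7 higher calls (median log2 fold change -0.20), and the 28 without had 13 and 8 (median -0.08). Taken apart, the 10 genes with TTTCCCGC had 6 lower and 3 higher calls (median -0.24). The 7 with TTTGGCGC had 3 lower and 4 higher (median 0.18). These differences were not tested. The windows below show matches in capitals, with 8 bases to each side, for genes of the same complex or step that moved in opposite directions, chosen after their values were seen. They are CDC6 (higher) and CDT1 (lower) of licensing, MCM6 (higher) and MCM3 and MCM7 (lower) of the ring, POLE (higher) and POLE2 (lower) of polymerase epsilon, and PCNA (higher) and RFC3 (lower).
CDC6 (chr17:40287878-40287901, plus strand): cattcggaTTTGGCGCgagcgcgg
CDT1 (chr16:88803746-88803769, plus strand): gggcgcccGCGGGAAAtttggcgg
MCM6 (chr2:135876580-135876603, minus strand): gctttgcaTTTGGCGCgaaatccc
MCM6 (chr2:135876518-135876541, minus strand): tggtcaggTTTGGCGCgaaatctc
MCM3 (chr6:52284901-52284924, minus strand): atggtacgTTTCCCGCcaccgcgg
MCM7 (chr7:100101569-100101592, minus strand): ctcggaccGCGGGAAAcccggcgc
POLE (chr12:132687345-132687368, minus strand): gtgggagcGCGCCAAAtttctccc
POLE2 (chr14:49688204-49688227, minus strand): cggcggtgGCGCCAAAtcgcaaat
PCNA (chr20:5126666-5126689, minus strand): cgtcagggGCGGGAAAaggcgtgc
RFC3 (chr13:33818086-33818109, plus strand): tggagctcGCGGGAAAacttgtct

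POLE and POLE2 thus carry the same 8 letters close to their RefSeq start, and TTTCCCGC, on the opposite strand, stands before both PCNA, which rose, and RFC3, which fell. MCM6 holds TTTGGCGC at 2 places, starting 152 and 90 bases before its RefSeq start. The 7 genes with CACGTG were GMNN, MCM2, MCM7, MCM8, RPA1, FEN1 and TIMELESS, of which 4 fell and 2 rose (median -0.23). Windows of 5 of them, with the E-box in capitals, are shown for genes that rose (GMNN, RPA1) and fell (MCM2, MCM7, TIMELESS).
GMNN (chr6:24774939-24774960, plus strand): cagttggtCACGTGgttgttcg
RPA1 (chr17:1829899-1829920, plus strand): gggtgggtCACGTGggccgcgc
MCM2 (chr3:127598392-127598413, plus strand): tggtgggtCACGTGaaccactt
MCM7 (chr7:100101409-100101430, minus strand): gcgccggtCACGTGgggggcga
TIMELESS (chr12:56449438-56449459, minus strand): ctcggagtCACGTGgaccagcc

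Whole promoters are printed for the 2 lowest and the 2 highest log2 fold changes of the 53 genes, MCM10 and GINS1 (lower) and RFC1 and RPA1 (higher). Capitals mark CACGTG, the E2F-type sequences and CCAAT on either strand.
MCM10 (chr10:13161308-13161607, plus strand): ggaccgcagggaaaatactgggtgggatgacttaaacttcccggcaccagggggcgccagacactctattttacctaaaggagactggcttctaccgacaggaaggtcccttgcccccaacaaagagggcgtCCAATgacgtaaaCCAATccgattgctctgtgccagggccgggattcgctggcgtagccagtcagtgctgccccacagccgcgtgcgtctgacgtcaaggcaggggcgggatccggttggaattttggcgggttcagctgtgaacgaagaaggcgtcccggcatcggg
GINS1 (chr20:25407423-25407722, plus strand): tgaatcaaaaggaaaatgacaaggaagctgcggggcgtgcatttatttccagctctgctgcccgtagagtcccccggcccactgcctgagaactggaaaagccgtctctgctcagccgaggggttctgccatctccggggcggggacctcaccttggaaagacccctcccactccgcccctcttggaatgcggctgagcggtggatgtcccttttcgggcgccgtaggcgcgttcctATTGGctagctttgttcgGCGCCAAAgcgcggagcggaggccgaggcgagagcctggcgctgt
RFC1 (chr4:39366313-39366612, minus strand): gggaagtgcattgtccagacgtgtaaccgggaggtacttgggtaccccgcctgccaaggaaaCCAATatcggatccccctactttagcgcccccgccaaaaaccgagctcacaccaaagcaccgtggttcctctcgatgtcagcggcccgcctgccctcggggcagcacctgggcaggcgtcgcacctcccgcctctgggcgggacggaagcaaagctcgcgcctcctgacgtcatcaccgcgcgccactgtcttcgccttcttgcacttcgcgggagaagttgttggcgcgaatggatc
RPA1 (chr17:1829755-1830054, plus strand): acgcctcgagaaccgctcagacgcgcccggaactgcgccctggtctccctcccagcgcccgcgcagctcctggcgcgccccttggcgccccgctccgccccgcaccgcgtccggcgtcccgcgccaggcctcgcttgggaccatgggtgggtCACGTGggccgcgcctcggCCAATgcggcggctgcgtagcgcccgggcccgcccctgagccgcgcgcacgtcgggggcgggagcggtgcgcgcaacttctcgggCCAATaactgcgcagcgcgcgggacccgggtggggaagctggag

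MCM10 and RFC1 hold no exact match to TTTCCCGC, TTTGGCGC or the E-box in this window, GINS1 holds TTTGGCGC, and RPA1 holds CACGTG. Near matches were not searched. The letters tttggcgg in MCM10 and ccgccaaa in RFC1 differ from TTTGGCGC, read on either strand, in a single letter. All 4 hold CCAAT on a strand.

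The pathway beyond the 53 genes also held calls in both directions, as did all tested genes (37.9% lower and 38% higher). The genes named, with log2 fold changes, have the smallest p in each direction. Of 35 other replication factors 15 fell (42.9%) and 14 rose (40%), near those shares, with a median of -0.08. TWNK, the mitochondrial replicative helicase gene, fell by 1.43 and TOPBP1, an activator of origin firing, by 0.63. KAT7, a histone acetyltransferase gene linked to licensing, rose by 0.81, and PCLAF, whose protein binds PCNA, rose by 0.52. Among 31 regulators of the G1 to S transition 20 rose (64.5%) and 9 fell (29%), with a median of 0.20. CCNE2, a cyclin E gene, rose by 2.24 and E2F7, an E2F repressor gene, by 1.81, while CCND1, the cyclin D1 gene, fell by 2.26 and CKS1B, a kinase cofactor gene, by 1.51.

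Mitotic genes were taken as markers of another cell cycle phase. Of 30, 11 fell (36.7%) and 9 rose (30%), against 37.9% and 38% of all tested genes, with a median of -0.03. Their summed level was 4522 to 4605 CPM in controls and 4466 to 4634 CPM with the MYCN shRNA. BIRC5 (-1.69) and AURKB (-1.10), of the chromosomal passenger complex, fell, while PRC1 (0.86), of the spindle, and NDC80 (0.65), of the kinetochore, rose. Of 20 replication checkpoint and repair genes 8 fell (40%), among them FANCD2 (-0.74) and CHEK1 (-0.47). Another 5 rose (25%), among them WEE1 (0.97) and TP53BP1 (0.25), and the median of the 20 was -0.05. Abundance moves with fold change in these libraries: among genes of 4 to 6 on the log2 CPM scale the 14 replication genes had a median of -0.27 against -0.0015 for all 4825, among genes of 6 to 8 the 32 replication genes had -0.04 against -0.07, and among genes of 8 to 10 the 6 had -0.08 against -0.21. The part of abundance in the results was not tested.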

How the data were processed

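RNA of Y79 cells with a control shRNA (3 libraries) or an shRNA against MYCN (3 libraries) was extracted with TRIzol and poly(A)-selected, per the labels' protocols. The authors deposited 1 table of estimated counts by gene, unscaled between libraries, of which 12.5% to 12.8% per library are not whole. GRCh38 is the build in the submitters' processing notes. Aligner, counter, annotation and strand setting: not given in the sources used here. Groups and replicate numbers came from the titles. Of 17035 rows, 22 without values were left out.

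Rounded counts went into edgeR 4.0.16 (quasi-likelihood test, R 4.3.3, robust, TMM, filterByExpr with a minimum count of 10), adjusted by Benjamini-Hochberg over 12819 genes at 0.05. The SE of a log2 fold change came from the F statistic. The biological coefficient of variation was 3.34%. No replicates were identical, and their chi-square per degree of freedom was 1.75 to 4.42. P-values set the difference between the groups against the spread between these libraries.

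All 53 genes are named, and library values are given for the called genes with the 2 lowest or 2 highest fold changes of a role in each direction and for genes not called or with overlapping libraries. Members and lists were chosen with earlier results of these data known. Positions and lengths came from GENCODE 29 and promoters from RefSeq. The test was checked on data simulated with few changed genes and no scaling shift between groups, so this check does not cover the scaling. Alternatives used DESeq2 1.42.0, limma 3.58.1 (voom), other scalings and filters, a replicate block, and each library left out. Python 3.11.15, pandas 2.3.3 and matplotlib 3.10.9 were used.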

Additional observations from a re-analysis of the deposited data

How the results depend on the processing

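Of 53 genes, 32 kept direction and call under all 14 alternatives. With library sizes alone 26 genes were higher, the median log2 fold change of all 53 was 0.10, and the medians were -0.10 (licensing), -0.12 (helicase), 0.26 (polymerase), 0.42 (clamp) and 0.15 (fork and maturation). Signs changed for MCMBP (0.13), CDC7 (0.11), POLD2 (0.16), FEN1 (0.10), WDHD1 (0.0558) and GINS3 (0.0964), of which GINS3 and WDHD1 did not pass the test there. With upper quartile scaling these medians were -0.0471 for all 53, -0.24 (licensing), -0.26 (helicase), 0.12 (polymerase) and 0.0066 (fork and maturation). With a library left out the helicase median ran from -0.33 to -0.27, the polymerase median from 0.0163 (without control replicate 1) to 0.13 (without control replicate 3), lower calls from 26 to 27 and higher calls from 14 to 17. Same-numbered libraries correlated in their deviations from group means by 0.082 to 0.14 and others by -0.115 to 0.003, each library best with its own number. The numbers were not taken as pairs, and a replicate block gave 27 lower and 17 higher genes, with FEN1 (adjusted p = 0.0428) as the added call. The causes of these shifts were not tested.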
